A study of Bos taurus with 6 samples.

Results

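The genes described here are those of the bovine class II histocompatibility region, named BOLA-D, in testis of Angus bull calves. Their members are all probe sets whose single gene symbol in the platform's probe-to-gene table starts with BOLA-D. That gave 20 probe sets of 12 genes, out of 24016 non-control probe sets on the array and 9155 gene symbols that own a probe set alone. Of the 20, 12 belong to 5 DQ genes (DQA1, DQA2, DQA5, DQB and DQB1) and 8 to 7 other genes (DMA, DMB, DOA, DRA, DRB3, DYA and DYB). The genes were selected on their signals, because DQ signals were present on some arrays and missing on others, so the DQ values are given as a description, with no test. Total RNA of whole testis from calves of 2, 4 and 8 weeks was hybridised to Affymetrix bovine GeneChips, with 2 arrays per age and 6 in all. Arrays are called 2wk, 4wk or 8wk by age, with the replicate number of the labels. No treatment is named. Whether arrays of 1 age stand for different animals is not stated, and a p-value below reflects the variation among these arrays alone, possibly technical in part.

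Class II molecules are pairs of an alpha and a beta chain that show peptides of ingested proteins to CD4 T cells, and they are made mainly by dendritic cells, macrophages and B cells. In cattle, the DR and DQ genes encode the molecules that present peptides. DM (DMA with DMB) helps to load the peptide, DO restrains DM, and DY occurs in ruminants. The DQ alpha and beta genes are very variable between animals, and some cattle chromosomes carry a duplicated pair while others carry a single pair. In the testis, class II protein is a feature of interstitial macrophages and other leukocytes.

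Signals are scaled intensities on a linear scale. Probes differ in response, so the level of a probe set is compared between arrays, and with other probe sets only for the control limit below. The summed signals of marker lists add several probe sets, so the bright ones weigh most in them. The highest signal of the 27 probe sets for Bacillus genes, which have no target in calf tissue, was 28.1 on any array, and values at or below it are read as not above control. A probe set is called on where it reached 8 times that level (224.8), and on and off where it was on in at least 1 array and not above control in another. By the array's naming, the endings _s_at and _x_at mark probe sets with probes shared between several genes or sequences. The ending _a_at marks probes shared between transcripts of the same gene. Signals of _s_at and _x_at sets may thus add up several DQ genes or alleles. With any ending, an allele that differs at the probed bases may go unseen. A low signal of a DQ probe set therefore does not separate a transcript that is missing from a transcript of another sequence.

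The array of 2wk replicate 2 stood apart. Its log2 values correlated with the other 5 arrays at a mean of 0.947 across probe sets, against 0.964 to 0.969 for each of the other arrays, and 31.6% of the 14410 probe sets tested had their highest signal there, against 11.7% to 16.9% for each other array. Markers of testis had signals above control. Of 20 listed testis genes, 15 had a named probe set, and all 15 lay above the filter on low values, which 60% of non-control probe sets pass. The lowest signal among them was 29.7, for CLDN11 in 2wk replicate 1, against 28.1 for the highest control. STAR, which brings cholesterol into mitochondria of Leydig cells, was at 1679 to 3559 over the 6 arrays. GATA4, a transcription factor of gonadal somatic cells, was at 511.4 to 1058.

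Of the 12 DQ probe sets, 6 were on and off between the arrays, and of the 8 others, 0 were. Over all non-control probe sets, 16 of 24016 (0.0666%) met the same description, so 10 of them were not among the 12 DQ probe sets. These 10 include Bt.22867.2.A1_at, which lists DQA1 together with another symbol and so is not a member. This share is printed for scale only, since the on and off pattern is what the genes were proposed for. At 4 times the control as the limit the counts were 8 DQ probe sets and 65 in all, and at 16 times 3 and 10. The DQ probe sets did not go on and off together but in different sets of arrays.

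**Figure D1:**
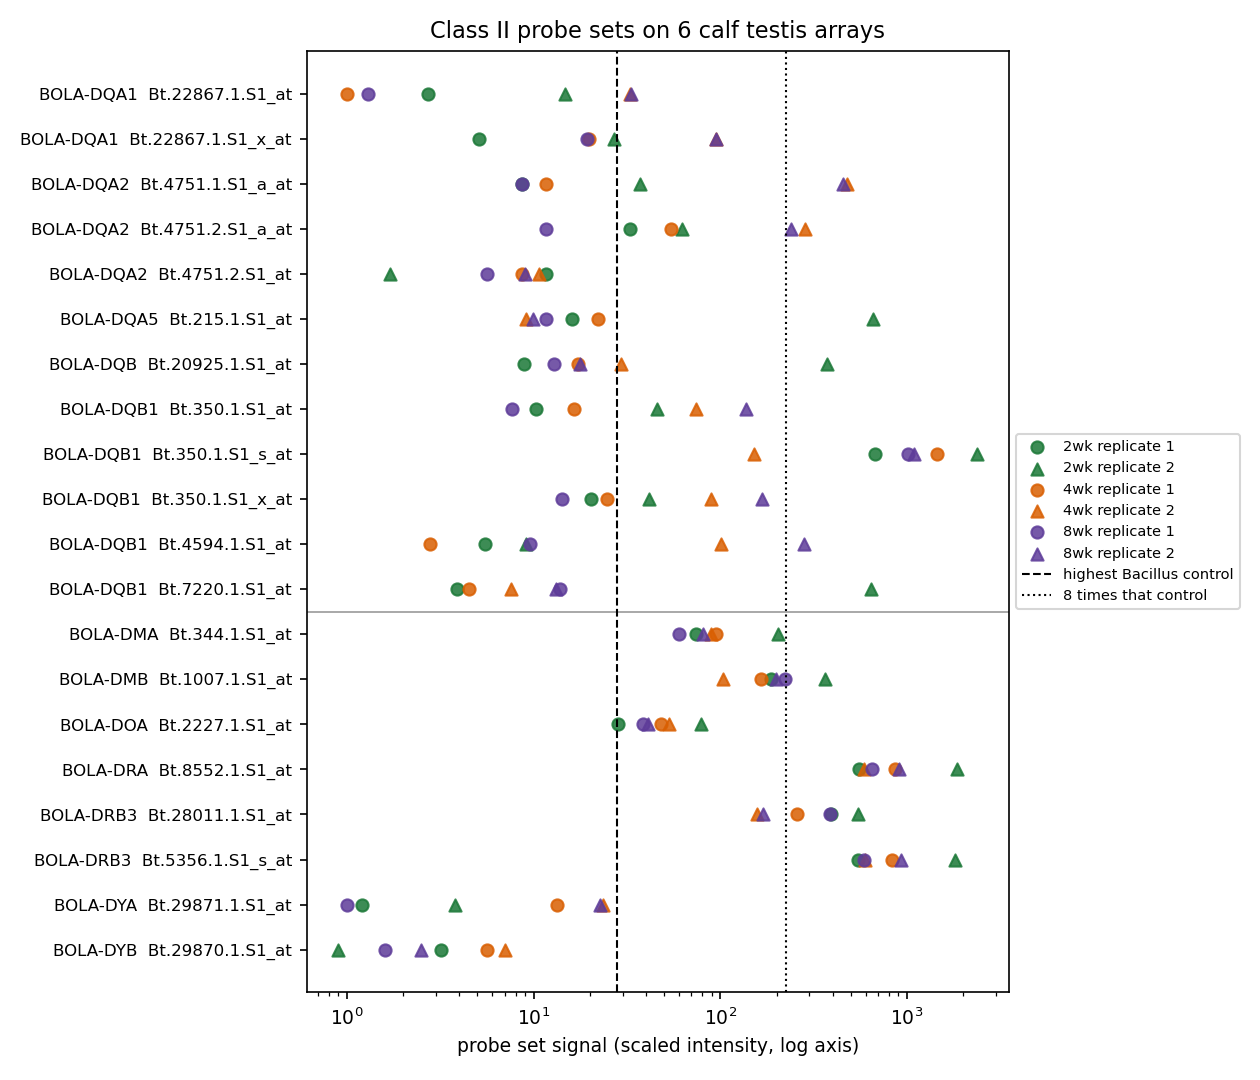
Signal (scaled intensity, log axis) of each of the 20 class II probe sets on the 6 arrays, with colours for age, circles for replicate 1 and triangles for replicate 2. The dashed line is the highest Bacillus control (28.1) and the dotted line 8 times that; 6 DQ probe sets have points on both sides of these lines, while DMA, DMB, DOA, DRA and DRB3 stay above the dashed line on every array and DYA and DYB below it.

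A first set of DQ probe sets was on in 2wk replicate 2 alone. DQA5, a DQ alpha chain gene (probe set Bt.215.1.S1_at), had a signal of 656.9 in that array, against 16 in 2wk replicate 1, 22.1 and 9.1 at 4 weeks and 11.7 and 9.9 at 8 weeks. DQB, a DQ beta chain gene (Bt.20925.1.S1_at), was at 371.1 there, against 8.9, 17.3, 29.4, 12.9 and 17.7 in the other arrays in the same order. One of the probe sets of the beta chain gene DQB1 (Bt.7220.1.S1_at) was at 644.1, against 3.9, 4.5, 7.6, 13.8 and 13.1. An alpha chain probe set and a pair of beta chain probe sets were thus on in the same array. The signal there was 23.4, 13.2 and 22.9 times the highest control for DQA5, DQB and Bt.7220.1.S1_at, while in the other 5 arrays DQA5 and Bt.7220.1.S1_at were not above control and DQB was above it in 1 array, by little (29.4).

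A second set was on in replicate 2 of the later ages. DQA2, another DQ alpha chain gene, had 478.1 at 4wk and 455.1 at 8wk in replicate 2 with probe set Bt.4751.1.S1_a_at. The 2wk arrays gave 8.7 and 37.1, and replicate 1 of 4wk and 8wk gave 11.6 and 8.7. Its probe set Bt.4751.2.S1_a_at gave 283.3 and 238.2 in the same arrays, against 32.9, 62.2, 54.6 and 11.6. The lowest signal of the arrays that were on was 12.3 times the highest of the rest with the first of these and 3.83 times with the second. The third DQA2 probe set, Bt.4751.2.S1_at, was not above control on any array (1.7 to 11.6), so the probe sets of this gene disagreed.

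The beta chain probe set Bt.4594.1.S1_at of DQB1 followed the same arrays, with 279.9 at 8wk and 100.8 at 4wk in replicate 2, against 2.8 to 9.5 in the other 4. It counts as on in 8wk replicate 2 only. Bt.350.1.S1_at and Bt.350.1.S1_x_at of the same gene reached 137.7 and 168.0 in replicate 2 of 8wk, and 74.2 and 89.1 in replicate 2 of 4wk. In the remaining arrays they were at 7.7 to 45.6 and at 14.2 to 41.7. DQA1, a further alpha chain gene, had 94.8 and 94.4 in 4wk and 8wk replicate 2 with Bt.22867.1.S1_x_at, against 5.1 to 26.9 elsewhere, and 32.9 and 33.4 with Bt.22867.1.S1_at, against 1.0 to 14.7. So 7 DQ probe sets of 3 genes had their highest pair of signals in these arrays, with no overlap with the other 4. The ones just inside the limit for on were Bt.4594.1.S1_at (279.9 at most) and Bt.4751.2.S1_a_at (283.3), and the ones just outside it Bt.350.1.S1_x_at (168.0) and Bt.350.1.S1_at (137.7).

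**Figure D2:**
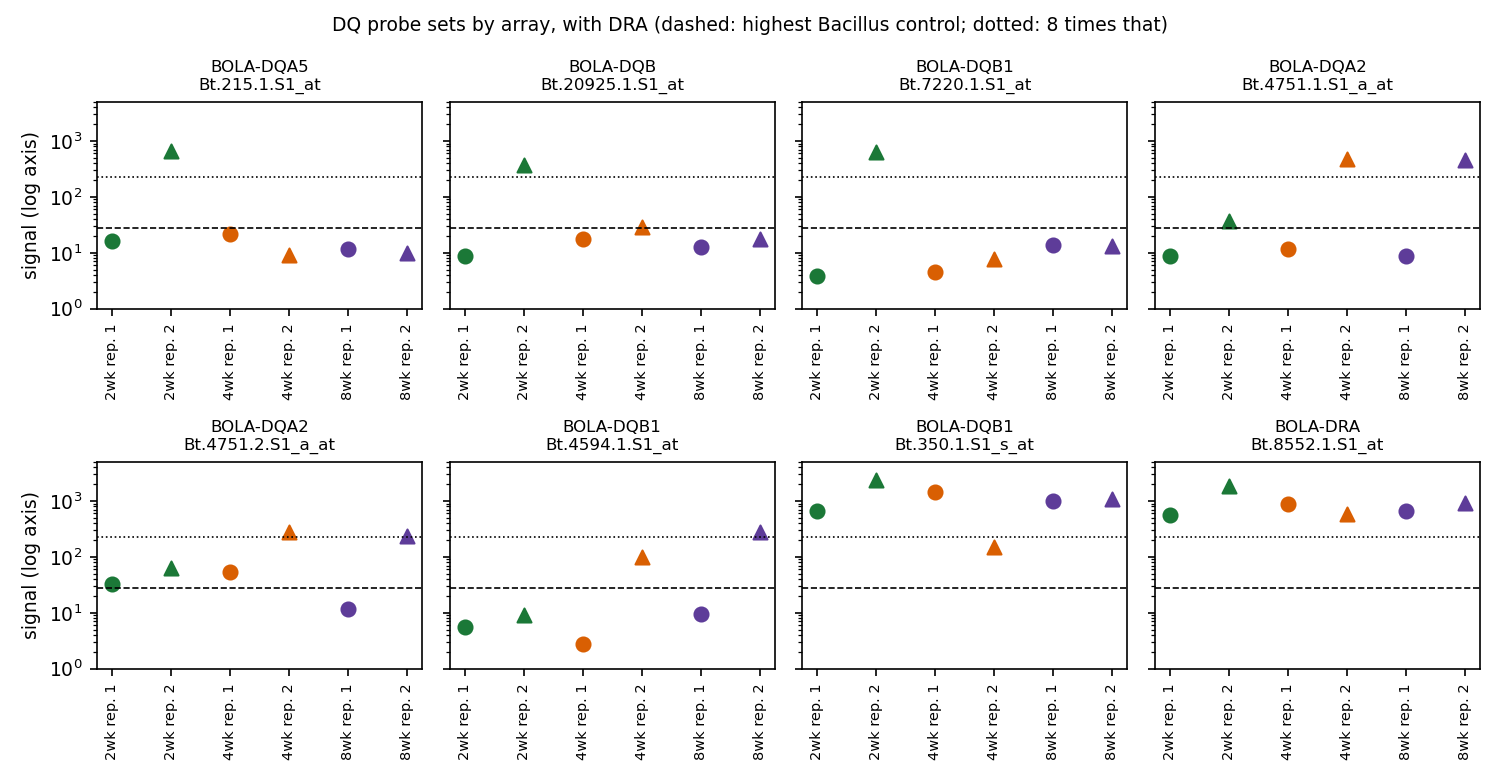
Signal (log axis) on each of the 6 arrays for the 6 DQ probe sets that were on and off, for DQB1 probe set Bt.350.1.S1_s_at and for DRA; colours and symbols give age and replicate, dashed and dotted lines the highest Bacillus control and 8 times that. DQB1 (Bt.7220.1.S1_at), DQA5 and DQB are high in 2wk replicate 2 alone, DQA2 and DQB1 (Bt.4594.1.S1_at) in 4wk and 8wk replicate 2, and Bt.350.1.S1_s_at is lowest in 4wk replicate 2 (151.0), where DRA was at 591.6.

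A single DQ probe set was above control on all 6 arrays. DQB1 with Bt.350.1.S1_s_at, whose probes are shared between sequences, was at 673.0 and 2378 in the 2wk arrays, 1450 and 151.0 in the 4wk arrays and 1012 and 1095 in the 8wk arrays. The lowest value was in 4wk replicate 2, and the other 5 arrays were at 673.0 or more. DRA was at 591.6 in 4wk replicate 2, within the 552.6 to 1856 of all arrays. Relative to the median of the DM, DO and DR probe sets, each as the difference from its own 6-array mean of log2(signal + 16), Bt.350.1.S1_s_at stood at -1.95 in that array and between 0.03 and 0.70 in the other 5. DMB (103.0) and DRB3 with Bt.28011.1.S1_at (157.0) also had their lowest signal there, and the median of the DM, DO and DR probe sets was -0.45, the lowest of the 6 arrays, so Bt.350.1.S1_s_at was low beyond that median.

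The replicate 1 arrays of the 3 ages were alike in what they lacked. Of the 12 DQ probe sets, 10 were at or below control in 2wk replicate 1, 10 in 4wk replicate 1 and 11 in 8wk replicate 1, and in each of them the only DQ probe set that was on was Bt.350.1.S1_s_at of DQB1. In replicate 2 the number at or below control was 4, 3 and 4 at the 3 ages. Of the 6 alpha chain probe sets, the only signals above control in a replicate 1 array were those of DQA2 with Bt.4751.2.S1_a_at, at 32.9 and 54.6. Of all non-control probe sets, 60.3% had their highest signal in a replicate 2 array, and of the DQ probe sets 11 of 12 did, which again is a description of values the choice of genes had used. The remaining one, Bt.4751.2.S1_at, was never above control.

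With arrays of 1 age on different sides of the limits, means by age say little for the DQ genes. DQA2 (Bt.4751.1.S1_a_at) had 22.9 ± 20.1 at 2 weeks, 245 ± 330 at 4 weeks and 232 ± 316 at 8 weeks (mean ± SD, n = 2 each), and DQA5 336 ± 453, 15.6 ± 9.19 and 10.8 ± 1.27. For DQA2 at 4 and 8 weeks and for DQA5 at 2 weeks, the SD came from an array that was on and an array not above control. DQA5 was not above control in any array of 4 or 8 weeks, and DQA2 was not on in either array of 2 weeks.

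Likeness of pattern was measured as the root mean square difference over the 6 arrays between log2(signal + 16) values centred on each probe set's mean, over the 9133 tested probe sets with 1 symbol. The 6 arrays share depth of scaling and, for 2wk replicate 2, a shift of many genes, so the measure is a description. Of the 5 nearest to each of the 6 on and off DQ probe sets, 16 of 30 were other DQ probe sets, of which the 9133 held 8. This count describes the pattern the genes were chosen for, and a DQ probe set could enter the 9133 through a single bright array. Bt.7220.1.S1_at and Bt.4594.1.S1_at lay below the filter, so neither could be listed as near to another probe set. For DQB1 with Bt.7220.1.S1_at the nearest was DQA5 (0.40) and then DQB (0.55). For DQA2 with Bt.4751.2.S1_a_at, the nearest were DQB1 with Bt.350.1.S1_x_at and Bt.350.1.S1_at (both 0.50) and DQA1 (0.58). For DQB1 with Bt.4594.1.S1_at, all 5 nearest were DQ probe sets (0.68 to 0.78).

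The nearest genes outside class II differed between the sets. For DQA5, DQB and Bt.7220.1.S1_at they were CTSW, a cysteine protease of cytotoxic lymphocytes (0.95, 0.63 and 1.09), HBB, the beta chain of haemoglobin (0.97, 0.70 and 1.07), and TNNC1, troponin C of slow and heart muscle (1.04, 0.73 and 1.14 with its nearer probe set), all of which were highest in 2wk replicate 2. For DQA2 with Bt.4751.1.S1_a_at the single one was the acetyltransferase gene NAA60 (1.39), and with Bt.4751.2.S1_a_at they were FURIN, a proprotein convertase (0.79), and GCLC, which starts glutathione synthesis (0.80).

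In the RefSeq gene table of assembly ARS-UCD2.0, 11 of the 12 member genes were found by Entrez identifier, all under the same symbol. DQA2, DQB, DQA5 and DQB1 follow each other there with 0 other protein-coding genes between them, and DRB3 and DRA come next, each after 1 other protein-coding gene. DQB, DQA5 and DQB1, which each have a probe set that was on in 2wk replicate 2 alone, are neighbours in that order. DQB1 also has a probe set (Bt.4594.1.S1_at) that was on in 8wk replicate 2 alone, where DQA2 was on too. DYA, DYB, DMB, DMA and DOA form a separate group on the same chromosome, 240 protein-coding genes away from DQA2.

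**Figure D3:**
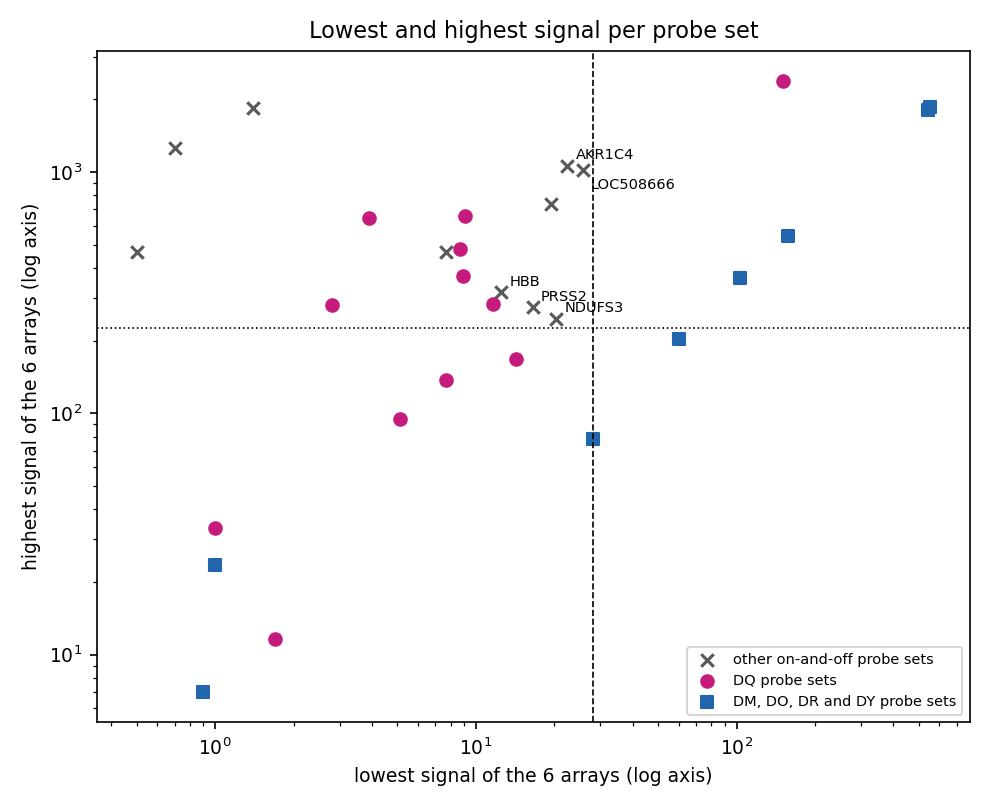
Lowest against highest signal of the 6 arrays (both on log axes) for the DQ probe sets, the other class II probe sets and the other 10 probe sets that were on and off; dashed and dotted lines mark 28.1 and 8 times that. The upper left field holds 6 DQ members and 0 of the 8 others of class II. Among the other 10 there is Bt.22867.2.A1_at, which lists DQA1 with another symbol.

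The DR genes were above control on every array. DRA, the nearly invariant alpha chain of DR (Bt.8552.1.S1_at), gave 552.6 and 1856 in the 2wk arrays, 866.3 and 591.6 in the 4wk arrays and 653.0 and 910.6 in the 8wk arrays. DRB3, the variable beta chain that pairs with it, gave 544.4 and 1806, 834.8 and 594.5, and 588.8 and 928.5 with Bt.5356.1.S1_s_at. The profiles of these probe sets of an alpha and a beta chain differed by a root mean square of 0.06 on the log2 scale. Both were highest in 2wk replicate 2, at 2.04 and 1.95 times the highest of the other 5 arrays, and the signals at 4 and 8 weeks overlapped.

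The second DRB3 probe set, Bt.28011.1.S1_at, took another course, with 390.0 and 545.4 in the 2wk arrays, 256.5 and 157.0 in the 4wk arrays and 388.6 and 169.4 in the 8wk arrays. It differed from DRA by a root mean square of 0.64. Relative to the median of the DM, DO and DR probe sets it stood at 0.80 in replicate 1 of 2 weeks, and at 0.67 and -0.67 in replicates 1 and 2 of 8 weeks. The pair of probe sets for DRB3 thus disagreed between arrays, within a 3.47-fold range of the signal, while never falling to control.

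The DM and DO genes were also above control on every array, DOA barely so in 2wk replicate 1. DMA, the alpha chain of the peptide-loading factor DM, was at 74.3 and 203.5, at 95 and 88.9, and at 60.3 and 81.2 at 2, 4 and 8 weeks. DMB, its beta chain, was at 187.1 and 362.6, at 165.2 and 103.0, and at 220.9 and 198.4. DOA, the alpha chain of DO, was at 28.2 and 78.4, at 48.3 and 53.2, and at 38.4 and 40.9. All 6 tested probe sets of DM, DO and DR were highest in 2wk replicate 2, against 31.6% of all probe sets tested, and their signal there was 1.92 to 3.04 times the median of the other 5 arrays. DYA and DYB were not above control on any array (highest 23.5 and 7.0), and no probe set is named here for the beta chain gene of DO.

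The age comparisons ask whether these genes differed between 2, 4 and 8 weeks. Log2(signal + 16) was tested with limma over the upper 60% of probe sets by mean, which 14 of the 20 members passed, 8 of DQ and all 6 of DM, DO and DR, with DYA and DYB left out. A DQ probe set could pass through a single bright array, so tests are given for DM, DO and DR only. Between 8 and 2 weeks 0 of these 6 passed an adjusted p under 0.05, as did 0 of 14410 probe sets (0.0%; 1002 at an unadjusted p under 0.05, 6.95%, none of the 6 among them). All 6 had a lower mean on the log2 scale at 8 weeks, with a median difference of -0.40 against -0.02 over all probe sets tested, of which 51.9% were lower. DRB3 with Bt.28011.1.S1_at had a log2 difference of -0.80 ± 0.37 (SE) and DMA -0.71 ± 0.37, both with a limma adjusted p of 0.672, and DRA -0.39 ± 0.45 with a limma adjusted p of 0.806. The ages did not overlap in 1 of the 6, DRB3 with Bt.28011.1.S1_at, against 37.7% of all probe sets tested.

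Between 4 and 2 weeks 0 members passed, as did 0 of all tested (0.0%; 519 at an unadjusted p under 0.05, 3.6%). Here 5 of the 6 were lower at 4 weeks (48.6% of all tested), with a median log2 difference of -0.49 against 0.01 over all. DRB3 with Bt.28011.1.S1_at differed by -1.14 ± 0.37 (SE) and DMB by -0.92 ± 0.32, both with a limma adjusted p of 0.944, and these were the 2 members with an unadjusted p under 0.05 and without overlap of the ages, against 27.3% without overlap over all tested. Between 8 and 4 weeks 0 members and 0 of all tested passed (0.0%; 361 at an unadjusted p under 0.05, 2.51%), with 4 of 6 higher and 2 lower at 8 weeks (51.6% of all tested were lower) and a median of 0.09 against -0.01. DMB had the difference with the smallest p, 0.62 ± 0.32 (SE; limma adjusted p = 1.0), and the ages did not overlap in 3 of 6 members, against 34.8% of all tested. The second step (4 to 8 weeks) against the first (2 to 4 weeks) gave 0 calls among the 6 and among all tested (0.0%; 269 at an unadjusted p under 0.05, 1.87%). Here 2 of the 6 had an unadjusted p under 0.05, DMB with a log2 difference of 1.54 ± 0.56 (SE) and DRB3 with Bt.28011.1.S1_at with 1.47 ± 0.64, both with a limma adjusted p of 1.0. The median was 0.58, against -0.04 over all tested. The comparisons with 2 weeks share the 2-week arrays, and those with 4 or 8 weeks likewise share theirs.

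The differences from 2 weeks rested on the 2-week arrays. Without 2wk replicate 2 the median of the 6 was 0.24 for 8 against 2 weeks and 0.31 for 4 against 2 weeks. Without 2wk replicate 1, so that replicate 2 alone stood for that age, the medians were -1.14 and -1.35. In that fit 1927 and 1128 probe sets passed, among them DMA (-1.35, limma adjusted p = 0.0127), DRA (-1.25, adjusted p = 0.0184) and DRB3 with Bt.5356.1.S1_s_at (-1.27, adjusted p = 0.0224) for 8 against 2 weeks. For 4 against 2 weeks DMA, DMB, DRA and DRB3 with Bt.5356.1.S1_s_at passed. DMA was at -0.07 for 8 against 2 weeks without 2wk replicate 2. DRB3 with Bt.28011.1.S1_at stayed below 0 for 8 against 2 weeks, at -0.57 without 2wk replicate 2, -1.04 without 2wk replicate 1, -0.24 without 8wk replicate 2 and -1.36 without 8wk replicate 1. For 4 against 2 weeks it was at -0.90 without 2wk replicate 2 and -1.37 without 2wk replicate 1, and DMB at -0.47 and -1.37.

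**Figure D4:**
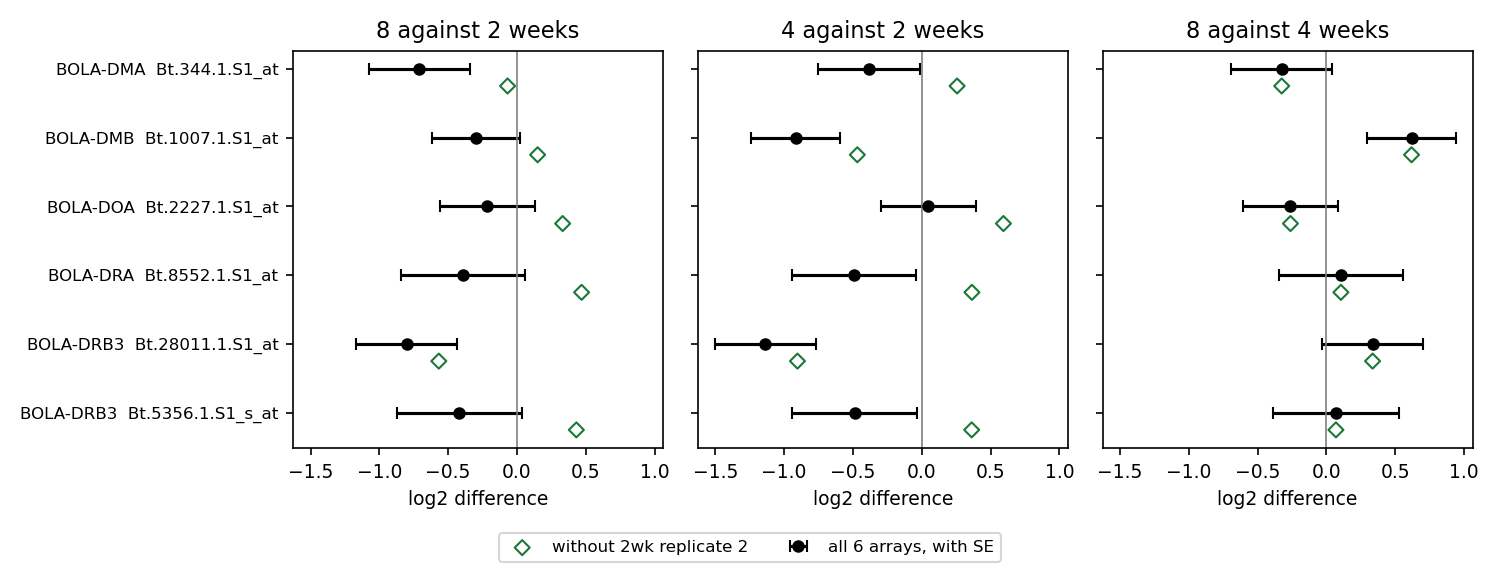
Log2 difference (limma, log2(signal + 16)) of the 6 tested DM, DO and DR probe sets for the 3 age comparisons, with SE from all 6 arrays (black) and the value without 2wk replicate 2 (open diamonds). For DRA, for DRB3 with Bt.5356.1.S1_s_at, for DMB and for DOA the difference between 8 and 2 weeks turns from below to above 0 without that array.

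Most tested pan-leukocyte, macrophage and T cell markers were highest in the same array as the DM, DO and DR genes. Only 3 B cell markers were tested, too few for a comparison with the other lists, and 1 of them was highest there. Over all probe sets tested, 31.6% were highest in 2wk replicate 2. Between 8 and 2 weeks 51.9% of all tested were lower and 6.95% had an unadjusted p under 0.05 in limma. In bulk tissue, more cells of a type and more RNA per cell cannot be told apart. Of the pan-leukocyte markers, 18 of 21 had a named probe set and all 18 were tested, of which 17 were highest in 2wk replicate 2. Their summed signal was 3393 and 6599 in the 2wk arrays, 4012 and 3237 in the 4wk arrays and 2831 and 3119 in the 8wk arrays. CORO1A, an actin-binding protein of leukocytes, was at 523.2 there and at 136.8 to 221.1 in the other arrays. Between 8 and 2 weeks all 18 were lower (median log2 difference -0.58), 0 passed in limma and 3 had an unadjusted p under 0.05. The part of these cells in the class II signals was not tested.

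Markers of macrophages, monocytes and dendritic cells had a named probe set for 19 of 33 genes, 15 of them tested and 13 of those highest in 2wk replicate 2. Their summed signal was 2011 and 5090 (2wk), 2439 and 2572 (4wk), and 2541 and 2216 (8wk), with ITGAM, CD1B and LAMP3 at or below control on every array. C1QC, a complement chain made by macrophages, was at 807.2 in 2wk replicate 2 and at 240.3 to 336.7 elsewhere, and the lysozyme gene LYZ2 went another way, highest in 8wk replicate 2 (231.2). Of the 15, 13 were lower at 8 than at 2 weeks, against 51.9% of all tested, with a median of -0.33. Among the 15, 0 passed in limma and 1 had an unadjusted p under 0.05, against 6.95% of all tested.

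Of the T and NK cell markers, 19 of 26 were named and 12 tested, of which 10 were highest in 2wk replicate 2, with summed signals of 1500 and 2578, 1943 and 1545, and 1368 and 1109 at the 3 ages. CD5, CD28, KLRB1, KLRK1 and NCR1 were at or below control on every array. CD3D, a chain of the T cell receptor complex, was at 252.8 in 2wk replicate 2 and at 86.2 to 142.2 elsewhere. Between 8 and 2 weeks 11 of 12 were lower, against 51.9% of all tested, with a median of -0.66. Among the 12, 0 passed in limma and 5 had an unadjusted p under 0.05, against 6.95% of all tested. Of the 18 B cell and plasma cell markers, 11 were named, and CD79A, BLNK, BLK, IGLL1 and FCER2 were at or below control on every array. The 3 tested were above it on all 6 arrays, at 114.5 to 291.2 for CD40, a receptor of B cells and macrophages, 69.6 to 118.4 for the antibody heavy chain IGHM and 44.3 to 125.4 for JCHAIN, which joins antibody chains. Of these 3, 1 was highest in 2wk replicate 2 (IGHM), against 31.6% of all probe sets tested. CD40 was at 275.5 in that array and at 291.2 in 2wk replicate 1, and JCHAIN was lowest in 2wk replicate 2 (44.3). The summed signal of the B cell and plasma cell markers was 530.2 and 584.6, 508.7 and 407.3, and 354.3 and 424.8. Of the haemoglobin and red cell genes, 8 of 11 were named and 2 tested, with 84.3 and 487.6, 220.5 and 162.0, and 126.9 and 141.2 in sum. Without 2wk replicate 2 the median log2 difference between 8 and 2 weeks was -0.15 for the pan-leukocyte, -0.21 for the T and NK cell and 0.13 for the macrophage, monocyte and dendritic cell markers. None of the genes on these lists passed in limma for 4 against 2 or 8 against 4 weeks either. An unadjusted p under 0.05 was seen for 1 macrophage, monocyte or dendritic cell marker, 2 B cell markers and 1 pan-leukocyte marker in the first. In the second it was seen for 1 T or NK cell marker. The shares over all tested were 3.6% and 2.51%.

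**Figure D5:**
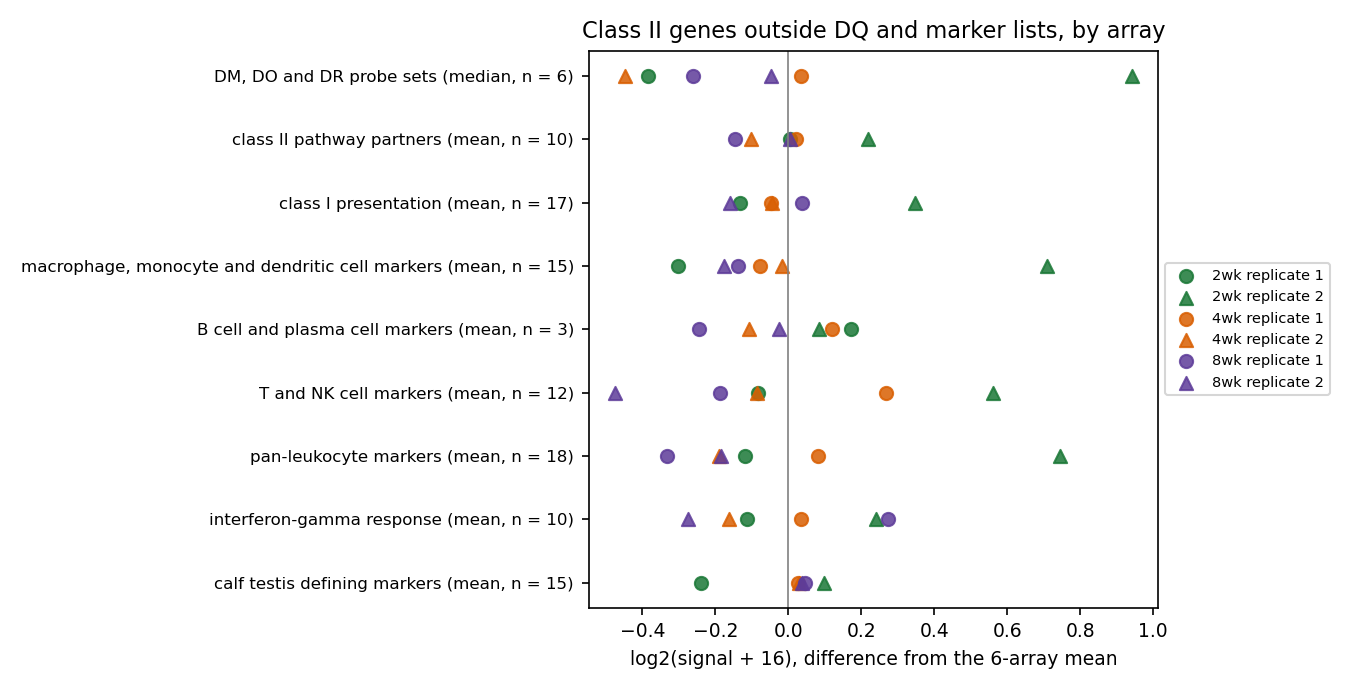
Difference of log2(signal + 16) from the 6-array mean for each array, as the median of the 6 DM, DO and DR probe sets and as the mean of each marker list with at least 3 tested genes. 2wk replicate 2 is at 0.94 for DM, DO and DR, 0.74 for pan-leukocyte and 0.71 for macrophage, monocyte and dendritic cell markers, to the right of the other 5 arrays in each of these.

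The leukocyte lists differed in how the arrays in which DQA2 was on stood to the replicate 1 arrays. In 4wk and 8wk replicate 2 the pan-leukocyte mean was -0.19 and -0.18 on the log2 scale relative to the 6 arrays, against -0.33 to 0.08 in the replicate 1 arrays, and the macrophage list was at -0.02 and -0.18, against -0.30 to -0.08. The T and NK cell list was at -0.08 and -0.48, against -0.19 to 0.27, and the B cell list at -0.11 and -0.02, against -0.24 to 0.17. Above its replicate 1 range was thus the macrophage list in 4wk replicate 2, and below it the T and NK cell list in 8wk replicate 2. DRA was at 591.6 and 910.6 in these arrays and at 552.6 to 866.3 in the replicate 1 arrays.

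The other genes of the class II pathway moved less between arrays. Of 18 listed partners, 13 had a named probe set and 10 were tested; for CD74, the invariant chain, and CIITA, the class II transactivator, no probe set is named here. IFI30, a lysosomal thiol reductase that unfolds antigens, was at 141.0 and 302.0, at 153.9 and 113.9, and at 126.0 and 154.4 at the 3 ages. CTSS, the cathepsin that trims the invariant chain, was at 581.2 and 598.4, at 589.0 and 437.3, and at 568.8 and 591.6. IFI30 was thus highest in 2wk replicate 2, like DRA, and CTSS hardly so. Of the 10 tested partners, 6 were highest in that array, IFI30 and CTSS among them, against 31.6% of all probe sets tested.

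Among further proteases LGMN (asparaginyl endopeptidase) ranged from 389.2 to 701.9 and CTSB (cathepsin B) from 788.7 to 1194, and CTSL was not above control (0.8 to 13.0). The factors that bind class II promoters ranged from 43.8 to 70.6 for RFX5, from 262.6 to 336.0 for RFXANK, from 57.5 to 82.3 for NFYA, from 185.5 to 325.5 for NFYB, from 132.9 to 279.7 for NFYC and from 30.0 to 46.8 for CREB1. CD4, the receptor for class II on helper T cells, was at 12.7 to 32.3, and the cytokine IL10 at 18.2 to 36.7, both below the filter. Between 8 and 2 weeks 7 of the 10 tested partners were lower and 3 higher (median -0.20), 0 passed in limma and 1 had an unadjusted p under 0.05. Over all tested 51.9% were lower and 6.95% had an unadjusted p under 0.05.

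Class I presentation genes, which show peptides from inside the cell, had a named probe set for 17 of 21, all tested, with 12 highest in 2wk replicate 2. PSMB10, a subunit of the immunoproteasome, was at 1246 in that array and at 524.7 to 675.1 in the others, and TAP2, a chain of the peptide transporter, was highest in 8wk replicate 1 (932.0). Between 8 and 2 weeks 10 of 17 were lower (median -0.19, 0 limma calls, 2 unadjusted p-values under 0.05). Over all tested 31.6% were highest in 2wk replicate 2, 51.9% were lower at 8 weeks and 6.95% had an unadjusted p under 0.05. Genes of interferon gamma signalling and response had 11 of 20 named and 10 tested, with 6 highest in 2wk replicate 2. WARS1 was among these 6, at 969.8 in 2wk replicate 2, where DRA was highest too, and at 447.4 to 652.5 in the others. GBP4, a guanylate-binding protein, went another way. It was lowest in 2wk replicate 2 (42.0) and highest in 8wk replicate 1 (179.0), where DRA was at 653.0. Of these 10, 6 were lower at 8 than at 2 weeks (median -0.17, 0 limma calls, 1 unadjusted p under 0.05).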

How the data were processed

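GCOS 1.4.0.036 is named in the submitters' processing notes. The deposited values are probe set signal intensities on a linear scale. Summary and detection settings: not given in the sources used here. Column by column, values show each array scaled to 1 trimmed mean (125.02 to 125.03, with 2% left out at each end), so they were used as deposited. Gene names came from the platform's probe-to-gene table. No test included the 112 control probe sets, and probe sets with several symbols are not named.

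Log2(signal + 16) was fitted with limma 3.58.1 in R 4.3.3 (lmFit, 1 coefficient per age over all 6 arrays, eBayes with trend), leaving 3 residual degrees of freedom, with Benjamini-Hochberg adjustment over 14410 probe sets and a threshold of 0.05. The fit was also run on simulated data, with independent noise of the same spread on every array. These data differ in that 2wk replicate 2 stood apart, and the outcome is not used here. A fold on this scale understates changes of dim probe sets, and 2 arrays per age limit the precision.

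Members and lists were chosen with earlier results of these data known. All members and pathway partners are named. From other lists, up to 4 genes by smallest p at 8 against 2 weeks and up to 4 by widest range could be named, each by its brightest probe set. Alternatives were pseudocount 1, no filter, the upper 40%, quantile normalization, no trend, a replicate block, each array left out and other limits for on.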

Additional observations from a re-analysis of the deposited data

How the results depend on the processing

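The values below come from the alternatives that moved a result and from leaving out 1 array at a time. The number of probe sets past the threshold was 0 in each age comparison and for the difference of steps. With 1 array left out it ranged from 0 to 1927 for 8 against 2 weeks, from 0 to 1128 for 4 against 2 weeks, and from 0 to 1 for 8 against 4 weeks and for the difference of steps. The counts of 1927 and 1128 came without 2wk replicate 1, and the lone array of an age was assumed to vary like the others. With the replicate block 8 probe sets passed for 8 against 2 weeks, none of them among the 6 DM, DO and DR probe sets. The replicate numbers were not used to pair arrays in the main fit. Deviations of replicate 1 from the age mean correlated across ages at 0.21, -0.005 and -0.06 over the probe sets tested. Whether the numbers link arrays across ages is not stated. These correlations cannot decide it, since a link in few genes would hardly move them. With 1 array left out, the median of the DM, DO and DR probe sets ranged from -1.14 to 0.24 for 8 against 2 weeks and from -1.35 to 0.31 for 4 against 2 weeks. For 8 against 4 weeks it ranged from -0.19 to 0.34, and no alternative counted as moving it. The count of on and off DQ probe sets was 6, 3 at 16 times the control, and 3 to 6 with 1 array left out (3 without 2wk replicate 2).

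Signs of single probe sets turned only with an array left out, among these alternatives. For 8 against 2 weeks the log2 difference ranged from -0.75 to 0.15 for DMB, -0.76 to 0.33 for DOA, -1.25 to 0.47 for DRA and -1.27 to 0.43 for DRB3 (Bt.5356.1.S1_s_at). For 4 against 2 weeks it ranged from -1.02 to 0.26 for DMA, -0.50 to 0.59 for DOA, -1.35 to 0.36 for DRA and -1.34 to 0.36 for DRB3 (Bt.5356.1.S1_s_at). For 8 against 4 weeks it ranged from -0.16 to 0.37 for DRA, -0.25 to 0.39 for DRB3 (Bt.5356.1.S1_s_at) and -0.23 to 0.90 for DRB3 (Bt.28011.1.S1_at). The cause was not tested. Signals near the controls limit what can be read from DOA, DQA1, DYA and DYB.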

Other observations

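Class I genes of the same region also held probe sets that changed between arrays, singled out here after their values were seen. A probe set that lists several class I symbols (Bt.29824.1.S1_s_at) was at 1256 in 2wk replicate 1 and at 0.7 to 5.9 in the other 5 arrays. BOLA-N, a class I gene (Bt.3805.1.S1_at), was at 3316 in 4wk replicate 2 and at 283.1 to 906.1 in the others, while BOLA (Bt.5324.1.S1_s_at) stayed between 3408 and 6045. A probe set left out of the members because it lists DQA1 with another symbol (Bt.22867.2.A1_at) was at 466.2 in 4wk replicate 2 and at 0.5 to 4.2 in the others. DQA2, which was on in both 4wk and 8wk replicate 2, therefore had a broader pattern than this probe set.

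Of the 16 probe sets that were on and off, 5 others had 1 symbol. AKR1C4, an aldo-keto reductase that acts on steroids, was at 22.4 in 4wk replicate 2 and at 530.9 to 1063 in the other arrays. LOC508666 was at 424.8 and 1016 at 2 weeks and at 544.2 in 8wk replicate 1, against 40.1, 25.7 and 47.3 in the others. The trypsinogen gene PRSS2 was at 16.5 in 4wk replicate 1 and at 145.0 to 276.0 elsewhere. NDUFS3, a subunit of respiratory complex I, was at 144.2, 247.0 and 236.6 in the replicate 1 arrays and at 20.3, 61.2 and 33.4 in replicate 2. HBB was at 317.9 in 2wk replicate 2 and at 12.5 to 109.4 in the others. A probe set with no symbol (Bt.22729.2.A1_at) had the widest range of all on the log2(signal + 16) scale, at 1834 in 8wk replicate 2 and at 1.4 to 48.2 in the others.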
